A study of Mus musculus with 4 samples.

Results

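The genes described here are 10 transcriptional targets of the tumour suppressor p53, chosen by name from the 24391 gene symbols counted in the RNA-seq: *Mdm2*, *Ccng1*, *Trp53inp1*, *Zmat3*, *Bbc3*, *Bax*, *Aen*, *Phlda3*, *Sesn1* and *Plk2*. All 10 were found by symbol, and all 10 had enough counts to be tested. Mouse embryonic fibroblasts (MEFs) were primary cells from E13.5 embryos, held in quiescence. By the labels, both alleles of *Phf2* were floxed and 1 copy of ERCre, a Cre recombinase fused to a modified oestrogen receptor and expressed from the *Rosa26* locus, was present in all 4 libraries. A tamoxifen label is carried by the 2 *Phf2* KO libraries and not by WT, and the protocol gives 0.5 µM 4-hydroxytamoxifen (4-OHT) for 7 days. The protocol is worded alike for the 2 WT libraries, whose labels read that no tamoxifen was given. Loss of Phf2, nuclear Cre and 4-OHT therefore came together and cannot be told apart, and no library had 4-OHT or active Cre without the floxed alleles. The study calls the 2 libraries of a group biological replicates. Whether a WT and a *Phf2* KO library of one number came from the same embryo is not stated.

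p53, encoded by *Trp53*, is a transcription factor that is kept at low levels by the ubiquitin ligase Mdm2 and accumulates when DNA is damaged. It binds pairs of half-sites in the DNA and activates genes for cell cycle arrest, DNA repair and apoptosis, and also *Mdm2* itself, which closes a negative feedback loop. Cre can cut sequences in the genome that resemble its recognition site, and sustained Cre activity is known to damage DNA in cultured fibroblasts. The comparison of *Phf2* KO with WT MEFs therefore asks whether the transcripts of p53 targets differed where Cre had been active.

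On mm9, the build to which the authors aligned, sequence near the annotated start of each gene was searched for the p53 consensus site. The window ran from 2000 bp before to 2000 bp after the start, and the site has 20 bp. This site consists of 2 adjacent half-sites of 10 bp, each RRRCWWGYYY with the core CWWG. Here R is A or G, W is A or T and Y is C or T. The C and G of both cores were required, up to 2 of the other 16 positions were allowed to differ, and the consensus reads alike on both strands. Such a match was present near 4 of the 10 genes, and near 522 of the 11833 protein-coding genes that were both tested and searched (4.41%). *Zmat3* was the gene among the 10 with a match at all positions. It lies in an intron 1328 bp after the annotated start. *Ccng1* had a match with 1 mismatch upstream and another in an intron, *Bax* had one in sequence annotated as exon in at least 1 transcript, and *Plk2* had one upstream. In the sequences below, written 5′ to 3′ on the strand of the gene, capitals mark the bases that fit the consensus.
*Zmat3* (chr3:32263253-32263272, reverse strand): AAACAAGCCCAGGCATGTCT
*Ccng1* upstream (chr11:40568964-40568983, reverse strand): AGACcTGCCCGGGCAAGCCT
*Ccng1* intron (chr11:40568438-40568457, reverse strand): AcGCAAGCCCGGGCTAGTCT
*Bax* (chr7:52721944-52721963, reverse strand): GGGCAgGCCCGGGCTTGTCg
*Plk2* (chr13:111184602-111184621, forward strand): GAtCTTGCTTAGACTTGTTg
These matches are descriptions of the sequence, and binding of p53 was not measured. For *Mdm2*, *Bbc3*, *Phlda3*, *Trp53inp1*, *Aen* and *Sesn1* no such match was in the window. Sites beyond the window, with a spacer between half-sites or with more mismatches were not searched for.

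The total count was between 21094743 and 26094268 per library. *Phf2*, the targeted gene, had counts of 3244 and 3680 in the WT libraries against 1454 and 2158 in the *Phf2* KO libraries (replicate 1 first), a log2 fold change of -0.79 (standard error 0.14). It was lower in both *Phf2* KO libraries than in both WT libraries, but was not called without the replicate block (adjusted p by edgeR = 0.999) and was called with it (adjusted p by edgeR = 7.67e-19). A count over the whole gene does not single out the exons that Cre removes. Libraries of one replicate number resembled each other across the groups. Counts of *Xist*, the RNA that coats an inactive X chromosome, were 10042 (WT) and 8336 (*Phf2* KO) in replicate 1 but 3 and 12 in replicate 2, and those of the Y-linked *Ddx3y* were 6 and 10 against 1271 and 1295, so the replicates of each group differed in sex. Values are therefore given per library and within each replicate number, and the fit with the number as a block is given beside the fit without it where it changes a call. Levels are normalized CPM (a library's counts divided by its TMM-scaled total and set to a common depth), with 2 libraries in each group. All 10 fibroblast markers were expressed, together at between 58208 and 70233 CPM. Both *Phf2* KO libraries lay below both WT libraries for 5 of them, against 18% of all genes, and above for 0, against 15.5%. With the block, *Lum* (log2 fold change -0.73) and *Col6a1* (-0.47) were called lower, 2 of the 10 against 5.2% of all genes. With it 0 were higher, against 5.77%, and without it 0 of the 10 were called in either direction.

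No p53 target among the 10 passed edgeR's quasi-likelihood test between the genotypes at a Benjamini-Hochberg adjusted p-value under 0.1, against 0.00732% of the 13668 genes tested. At an unadjusted p-value under 0.05 it was 1 of the 10, *Bbc3*. The fitted log2 fold changes were small and ran from -0.04 for *Trp53inp1* to 0.38 for *Bbc3*. They were above 0 for 9 of the 10 genes, with a median of 0.10, while 7003 of all 13668 genes were above 0, with a median of 0.01. This direction rested on single libraries: without WT replicate 1, 4 of the 10 were above 0 and 6 below, with a median of -0.0081, and without *Phf2* KO replicate 2, 6 were above and 4 below, with a median of 0.052. Within both replicate numbers, *Phf2* KO was higher than WT for 5 of the 10 genes (*Mdm2*, *Bax*, *Bbc3*, *Phlda3* and *Plk2*), against 32.6% of all genes tested, and lower for 0, against 30.2%. For the other 5 the replicate numbers went in opposite directions. Both *Phf2* KO libraries lay above both WT libraries for *Bbc3* and *Bax*, 2 of the 10 against 15.5% of all genes, and below them for 0, against 18% of all genes. With the replicate number as a block, 1 of the 10 genes (*Bbc3*) was higher in *Phf2* KO, against 5.77% of all genes, and 0 were lower, against 5.2%. In bulk RNA, fewer cells of a type and less RNA per cell cannot be told apart.

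**Figure D1:**
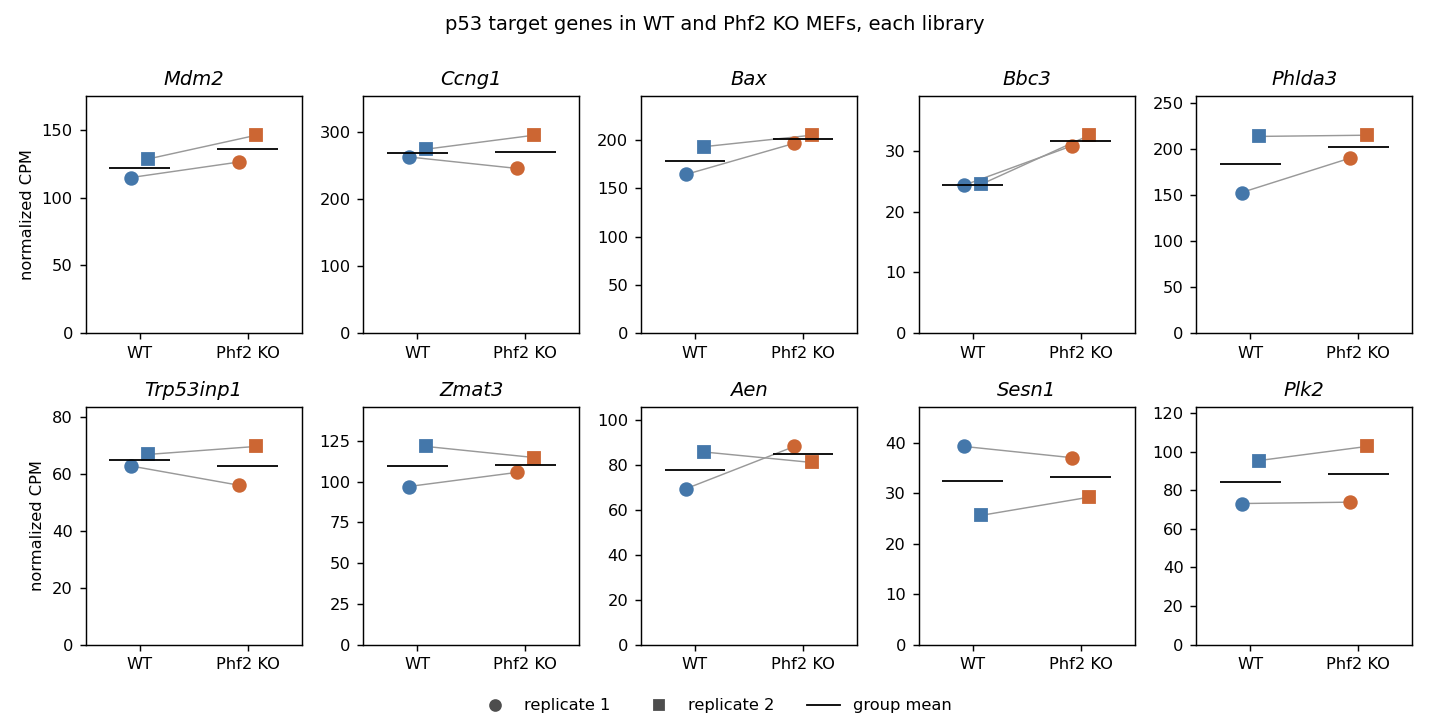
Normalized CPM (y axis from 0, a scale of its own in each panel) of the 10 p53 target genes in each WT and Phf2 KO library, with circles for replicate 1, squares for replicate 2, grey lines joining libraries of one number and black bars at the means of 2 libraries. The groups are apart for Bbc3 (24.3 and 24.5 against 30.8 and 32.5 CPM) and Bax, and overlap for the other 8.

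Of the genes that act in apoptosis, *Bbc3* (chromosome 7 of mm9, 16894965 to 16903554, forward strand) encodes Puma, a BH3-only protein that binds and neutralizes the survival proteins of the Bcl-2 family. Its counts were 586 and 635 for WT against 638 and 782 for *Phf2* KO, or 24.3 and 24.5 against 30.8 and 32.5 CPM (replicates 1 and 2). The WT libraries were nearly equal, and both *Phf2* KO libraries were above them. The means were 24.4 ± 0.113 CPM (SD, n = 2) for WT against 31.7 ± 1.23 CPM (SD, n = 2) for *Phf2* KO. The fitted level of *Bbc3* was 1.30-fold that of WT, with a 95% interval from 1.09 to 1.55 that is not corrected for the number of genes. The log2 fold change of *Bbc3* was 0.38 (standard error 0.096, unadjusted p = 0.0134, adjusted p by edgeR = 0.999). With the replicate block, *Bbc3* was called (adjusted p by edgeR = 0.00446), and limma-voom with the block called it too (adjusted p = 0.00729 from limma), but DESeq2 with the block did not (adjusted p by DESeq2 = 0.293). With the block, 1 residual degree of freedom is left.

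*Bax* (chromosome 7, 52717065 to 52722268, reverse strand), whose product permeabilizes the outer mitochondrial membrane, was at 164 and 193 CPM in WT and 196 and 205 CPM in *Phf2* KO replicates 1 and 2. The groups did not overlap, but the lowest *Phf2* KO library was close to the highest WT library. The log2 ratio of *Phf2* KO to WT *Bax* was 0.26 within replicate 1 (95% interval of counting error 0.19 to 0.32) and 0.09 within replicate 2 (0.03 to 0.14). These intervals did not overlap, but they cover counting error only. Its fitted log2 fold change, 0.17 (standard error 0.11), was not called without the block or with it (adjusted p by edgeR of 0.999 and 0.23).

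*Phlda3* (chromosome 1, 137662696 to 137665713, forward strand) encodes a protein of little more than a PH domain that competes with the kinase Akt for membrane lipids. Its levels were 153 and 214 CPM in WT and 190.2 and 215 CPM in *Phf2* KO replicates 1 and 2. WT replicate 1 was the low library, and the other 3 were near each other. The log2 ratio of *Phlda3* was 0.31 within replicate 1 (0.25 to 0.38) and 0.01 within replicate 2 (-0.05 to 0.06).

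*Aen* (chromosome 7, 86040740 to 86056095, forward strand), a nuclease that takes part in the breakdown of DNA during apoptosis, showed the same library apart. It was at 69.3 and 85.6 CPM in WT and at 88.1 and 81.0 CPM in *Phf2* KO replicates 1 and 2. Within replicate 1 the log2 ratio of *Aen* was 0.35 (0.25 to 0.44), and within replicate 2 it was -0.08 (-0.17 to 0.01). *Bbc3*, *Bax*, *Phlda3* and *Aen* thus each had a ratio above 0 in replicate 1 whose counting interval did not reach 0, and in replicate 2 this held for *Bbc3* and *Bax*. Whether replicate 1 and replicate 2 differed in the effect was not tested, since each holds 1 library per group.

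Of the genes that feed back on p53, *Mdm2* (chromosome 10, 117125944 to 117147814, reverse strand) had counts of 2767 and 3335 for WT against 2616 and 3510 for *Phf2* KO. Scaled, it was at 115 and 129 CPM in WT and 126 and 146 CPM in *Phf2* KO replicates 1 and 2. *Phf2* KO was above WT in both replicate numbers, by a log2 ratio of 0.14 (0.06 to 0.21) and 0.18 (0.12 to 0.25), yet *Phf2* KO replicate 1 lay below WT replicate 2, so that the groups overlapped. The fitted log2 fold change of *Mdm2* was 0.16 (standard error 0.11, adjusted p by edgeR of 0.999 and, with the block, 0.26), a 1.12-fold level with a 95% interval from 0.907 to 1.38.

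*Ccng1* (chromosome 11, 40562054 to 40568813, reverse strand) encodes cyclin G1, which recruits the phosphatase PP2A to Mdm2. Its levels were 263 and 275 CPM in WT and 246 and 296 CPM in *Phf2* KO replicates 1 and 2. The replicate numbers went in opposite directions, with log2 ratios of -0.10 (-0.15 to -0.04) and 0.11 (0.06 to 0.15), and the fitted log2 fold change was 0.01 (standard error 0.12). The fold of *Ccng1* had a 95% interval from 0.807 to 1.26.

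*Trp53inp1* (chromosome 4, 11083578 to 11101526, forward strand), which encodes a stress protein that promotes phosphorylation of p53 and autophagy, was at 62.6 and 66.7 CPM in WT and 55.9 and 69.5 CPM in *Phf2* KO replicates 1 and 2. The *Phf2* KO libraries of *Trp53inp1* lay on either side of both WT libraries. *Zmat3* (chromosome 3, 32233718 to 32264600, reverse strand), an RNA-binding zinc finger protein that stabilizes or destabilizes target mRNAs, was at 97.0 and 122 CPM in WT and 106 and 115 CPM in *Phf2* KO, so that here the WT libraries lay on either side. The 95% interval of the fold was from 0.761 to 1.24 for *Trp53inp1*. It was from 0.786 to 1.29 for *Zmat3*, the gene with the p53 site that matched at all positions.

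Of the genes that restrain growth, *Sesn1* (chromosome 10, 41530380 to 41628230, forward strand) encodes a sestrin, a stress-induced inhibitor of mTORC1. It was the least counted of the 10 after *Bbc3*, at 39.2 and 25.6 CPM in WT and 37.0 and 29.2 CPM in *Phf2* KO replicates 1 and 2. Both libraries of replicate 1 were above both of replicate 2, whatever the genotype. *Plk2* (chromosome 13, 111185252 to 111191052, forward strand), a polo-like kinase of centriole duplication and early G1, was split the other way, at 73.2 and 95.5 CPM in WT and 73.9 and 103 CPM in *Phf2* KO replicates 1 and 2. The log2 fold change between genotypes was 0.03 (standard error 0.25) for *Sesn1*. For *Plk2* it was 0.07 (standard error 0.21).

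**Figure D2:**
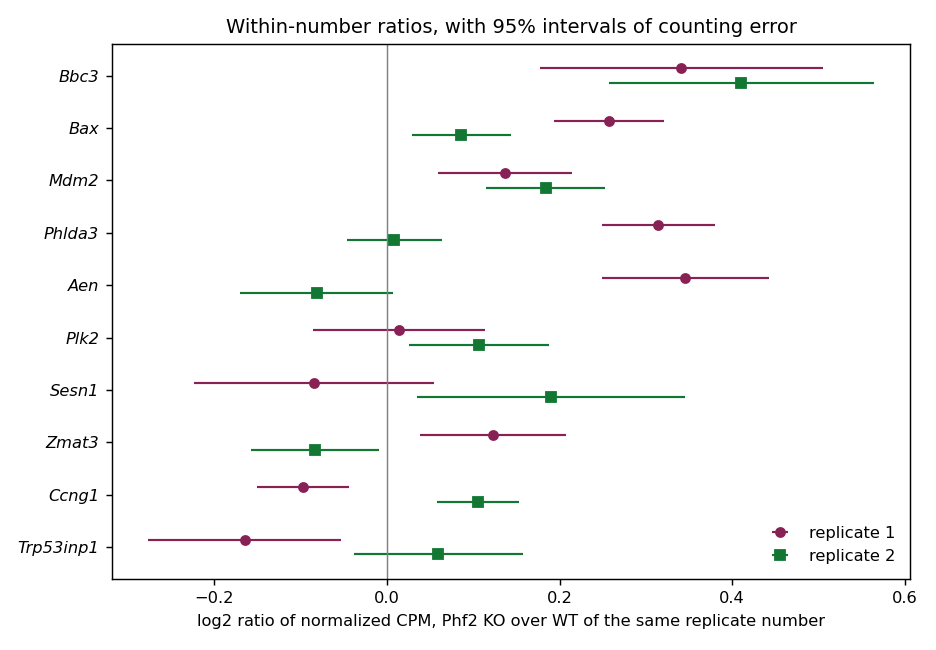
Log2 ratio of normalized CPM in Phf2 KO over WT (x axis) within replicate 1 (circles) and replicate 2 (squares) for the 10 p53 target genes, with bars for 95% exact binomial intervals of counting error. Bbc3, Bax and Mdm2 are above 0 in both numbers with intervals that do not reach 0, and Ccng1 and Zmat3 have intervals on opposite sides of 0.

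In the fit with both terms, more of the 10 genes were called for the replicate number than for the genotype. So it was over all genes, with 1717 higher and 1863 lower in replicate 2, against 789 higher and 711 lower in *Phf2* KO. The replicates of each group differed in sex, and whether libraries of one number share an embryo is not stated. The p-values for the number therefore do not measure spread between embryos. Of the 10, 5 were higher in replicate 2 than in replicate 1 (*Plk2*, *Phlda3*, *Zmat3*, *Trp53inp1* and *Mdm2*), against 12.6% of all genes, and *Sesn1* was lower, against 13.6% of all genes. The log2 difference of *Plk2* was 0.43 (standard error 0.083, adjusted p by edgeR = 3.44e-06). For *Sesn1* it was -0.48 (standard error 0.096, adjusted p by edgeR = 8.19e-06). *Phlda3* differed by 0.33, *Zmat3* by 0.22, *Trp53inp1* by 0.20 and *Mdm2* by 0.19 on the log2 scale. Within WT and within *Phf2* KO alike, replicate 2 was the higher for 8 of the 10 genes, as it was for 4904 of all 13668. *Sesn1* was lower in replicate 2 in both groups, and *Aen* was higher in WT replicate 2 and lower in *Phf2* KO replicate 2. *Bbc3* differed least between the numbers, by 0.05 (standard error 0.10). The 20 macrophage markers moved with the replicate number as well. Their sum was 4402 (WT) and 4967 (*Phf2* KO) CPM in replicate 1 and 951 and 1489 CPM in replicate 2, and 0 of the 20 were without counts in every library. All 18 tested were called lower in replicate 2, against 13.6% of all genes. With the block, 9 of the 18 were also called higher in *Phf2* KO than in WT, against 5.77% of all genes. Without it 0 of the 18 were called for the genotype, and for 7 the replicate numbers went in opposite directions. Of 18 cell cycle genes, 12 were called lower in replicate 2, against 13.6% of all genes, and 0 higher, against 12.6%. The part of either in the p53 target values was not tested.

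**Figure D3:**
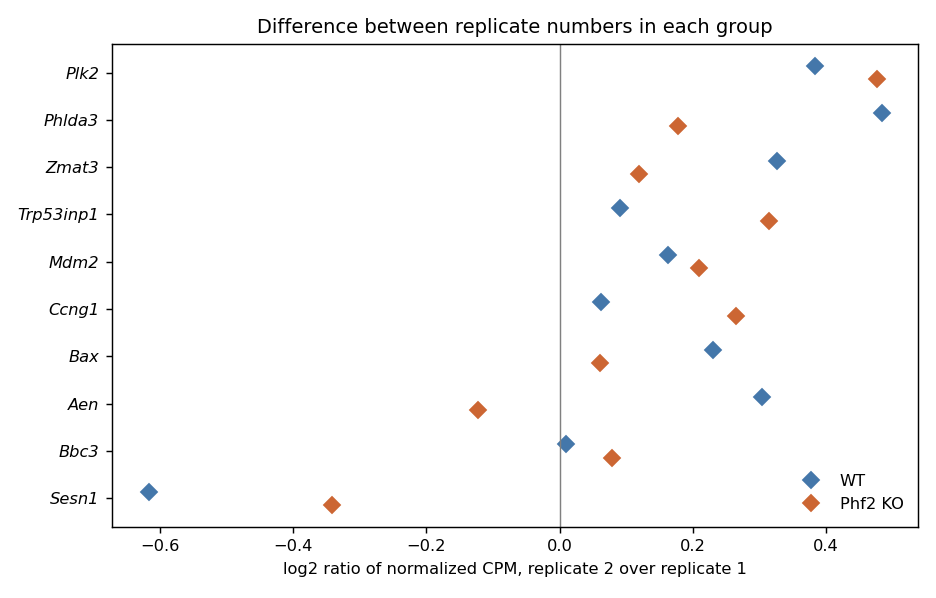
Log2 ratio of normalized CPM in replicate 2 over replicate 1 (x axis) within WT and within Phf2 KO for the 10 p53 target genes, ordered by the fitted difference. Sesn1 is below 0 in both groups, Aen lies on either side of 0, and the other 8 are above 0 in both.

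Per kilobase of annotated exon, which makes levels of different genes comparable, the order over the 4 libraries was *Bax* (142 CPM per kb), *Phlda3* (124), *Ccng1* (76.8), *Plk2* (30.8), *Mdm2* (25.4), *Aen* (14.2), *Bbc3* (13.96), *Zmat3* (13.6), *Sesn1* (9.85) and *Trp53inp1* (9.84). The ranges of neighbours over the libraries overlapped between *Bax* and *Phlda3*, between *Plk2* and *Mdm2*, among *Aen*, *Bbc3* and *Zmat3*, and between *Sesn1* and *Trp53inp1*. They did not overlap at the other steps. *Bax* was above *Phlda3* and *Plk2* above *Mdm2* in each of the 4 libraries, whereas *Sesn1* was above *Trp53inp1* in 2 of them. The lengths count all annotated exons of a gene once, so levels per kb are understated for genes whose rarer transcripts add exons.

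The wider p53 programme was described from a list of 36 further targets, of which 35 were tested. In the fit without the block 0 were called, and 1 was lower at an unadjusted p-value under 0.05 (*Steap3*). With the block 4 were higher and 3 lower, against the 5.77% and 5.2% of all genes given above. The median log2 fold change of the 35 was 0.10 without the block, and 23 of them were above 0, as were 7003 of all 13668 genes. Within both replicate numbers 17 of the 35 were higher, against 32.6% of all genes, and 9 lower, against 30.2%. *Cdkn1a*, the gene for the cell cycle inhibitor p21 and the one of the 35 with the highest CPM, had a mean of 798 ± 84.1 CPM (SD, n = 2) for WT against 713 ± 14.2 CPM (SD, n = 2) for *Phf2* KO. Both *Phf2* KO libraries of *Cdkn1a* were below both WT libraries, but its log2 fold change, -0.16 (standard error 0.11), was not called with the block either (adjusted p by edgeR = 0.372).

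Of the further targets called with the block, *Steap3*, which encodes an endosomal ferric reductase, had counts of 3243 and 3099 for WT against 1813 and 1779 for *Phf2* KO. It was the further target with the smallest p-value. The means of *Steap3* were 127 ± 10.7 CPM (SD, n = 2) for WT against 80.8 ± 9.54 CPM (SD, n = 2) for *Phf2* KO, a log2 fold change of -0.65 (standard error 0.12), called by edgeR with the block (adjusted p = 9.34e-13) and by DESeq2 without it (adjusted p = 0.0164). *Gadd45a*, a stress sensor that acts in growth arrest, had a mean of 79.7 ± 10.8 CPM (SD, n = 2) for WT against 102 ± 10.3 CPM (SD, n = 2) for *Phf2* KO. The log2 fold change of *Gadd45a* with the block was 0.36 (standard error 0.083, adjusted p by edgeR = 0.000635). The exons of *Gadd45a* overlap those of E230016M11Rik on the opposite strand. *Perp*, a membrane protein of desmosomes and apoptosis, was lower, by -0.70 (standard error 0.19). *Dcxr*, a sugar reductase, was higher by 0.29 (standard error 0.087). *Ddit4l*, an inhibitor of mTOR signalling, was higher by 0.45 (standard error 0.14). *Pmaip1*, the gene for the BH3-only protein Noxa, was higher by 0.40 (standard error 0.14), all with the block. Counts of *Pmaip1* were 147 and 324 for WT against 170 and 390 for *Phf2* KO, so replicate 2 held more in both groups. These 6 went both ways, *Steap3* and *Perp* below WT and the other 4 above. The remaining further target called with the block is not among these 6 and was below WT. DESeq2 with the block called *Steap3* and *Gadd45a* but not *Dcxr* (adjusted p by DESeq2 = 0.295).

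**Figure D4:**
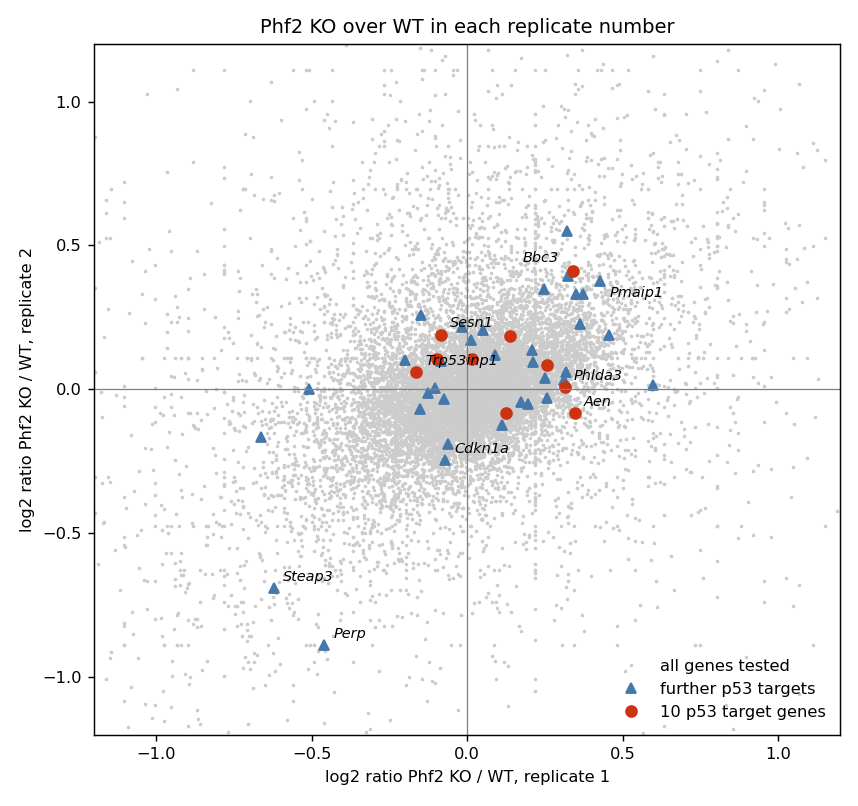
Log2 ratio of Phf2 KO over WT within replicate 1 (x axis) and replicate 2 (y axis) for all genes tested (grey), 35 further p53 targets (triangles) and the 10 p53 target genes (circles). The axes end at 1.2, beyond which 385 genes lie, and 12 genes with a 0 in a library are not drawn; Bbc3 and Pmaip1 are above 0 in both numbers and Steap3 and Perp below.

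Among the regulators of p53, *Trp53* itself had counts of 3708 and 3689 for WT against 3128 and 3374 for *Phf2* KO. The means were 148 ± 8.25 CPM (SD, n = 2) against 146 ± 7.50 CPM (SD, n = 2), a log2 fold change of -0.02 (standard error 0.091). *Mdm4*, the paralog of *Mdm2* that binds p53 without being a strong ligase, had means of 41.8 ± 2.31 CPM (SD, n = 2) for WT against 45.0 ± 6.65 CPM (SD, n = 2) for *Phf2* KO. Of 16 regulators tested 0 were called without or with the block, and their median log2 fold change was -0.01. Transcript levels do not measure p53 protein, whose amount is set largely by its stability.

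Of 14 genes for DNA damage signalling, 0 were called without the block and 2 were lower with it, against 5.2% of all genes. These were *Rad50*, a subunit of the complex that binds broken ends (log2 fold change with the block -0.28, standard error 0.090), and *Atm*, the kinase that the complex activates (-0.30, standard error 0.11). The median of the 14 was -0.13, and 3 were above 0, as were 7003 of all 13668 genes. The median log2 ratio was -0.18 within replicate 1 and 0.035 within replicate 2. Within both replicate numbers 2 of the 14 were higher, against 32.6% of all genes. In both, 5 were lower, a share near the 30.2% of all genes. Both *Phf2* KO libraries lay below both WT libraries for 4, against 18% of all genes, and above them for 0, against 15.5%. Of 11 Bcl-2 family genes tested, 2 were higher with the block, *Pmaip1* and *Bmf* (0.27, standard error 0.10), against 5.77% of all genes, and 0 were lower, against 5.2%. The same shares apply to the lists that follow. Among the 14 paralogs of the 10 genes, *Ccng2* (0.34, standard error 0.12) and *Trp53inp2* (0.25, standard error 0.087) were higher and *Isg20l2* (-0.34, standard error 0.11), whose exons overlap those of *Rrnad1* on the opposite strand, was lower with the block. *Mcm2*, a subunit of the replicative helicase, was the 1 cell cycle gene of 18 called with the block (-0.30, standard error 0.096), a share near the 5.2% of all genes. Of these genes, 0 were called without the block, and DESeq2 with the block called 0 of those named here. *Bmf* was not called by limma-voom with the block either (adjusted p = 0.122 from limma).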

How the data were processed

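RNA-seq of 2 WT and 2 *Phf2* KO libraries was analysed. The authors trimmed single reads with Trim Galore, removed ribosomal RNA with bowtie2, aligned to MGSCv37 (mm9) with STAR (reverse stranded) and counted with featureCounts. Versions are not given in the sources used here. The deposited values are raw counts per gene. A second deposited table, with the authors' fold changes and p-values, was not used.

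Genes were filtered with filterByExpr (13668 kept), scaled by TMM and tested with edgeR 4.0.16 (glmQLFit, glmQLFTest) in R 4.3.3, with Benjamini-Hochberg adjustment over all genes tested and a threshold of 0.1. As alternatives, limma 3.58.1 and DESeq2 1.42.0 were run. Standard errors are the log2 fold change over the root of the F statistic. Intervals of within-number ratios are exact binomial, at 95%, and cover counting error only. Fits were also run on simulated counts. The changes planted there were larger than those of the 10 p53 target genes, so changes as small as theirs were not tried. Motifs and figures used Python 3.11.15 and GENCODE's annotation of NCBIM37, which is mm9. Counts of directions and of libraries that do not overlap carry no test.

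No library repeated another (chi-square per degree of freedom at least 11.8 for any pair). The pairing of replicate numbers is not stated. Across 11553 genes, the log2 difference between the numbers had a Pearson's r of 0.850 between WT and *Phf2* KO, given as a description since genes are not independent. It shows a difference that the groups share, and cannot tell whether libraries of one number came from the same embryo. *Xist* followed the number too.

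The 10 genes and all lists were chosen with earlier results of these data known. Of each list, up to 6 genes called without or with the block were named, by p-value, with *Trp53*, *Cdkn1a* and *Mdm4* whatever their values. Endothelial, muscle, epithelial and neural markers together took at most 22.1, 68.9, 0.998 and 81.0 CPM in a library.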

Additional observations from a re-analysis of the deposited data

How the results depend on the processing

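The call of 0 of the 10 p53 target genes was the same with DESeq2, limma-voom, RLE size factors, all genes with at least 1 count, a threshold of 0.05 and each library left out (0 to 0), and became 1 (*Bbc3*) with the replicate block. Further fits were added after the data were seen: the block in limma-voom gave 1 and the block in DESeq2 gave 0. Over all genes, 1 was called, 66 with DESeq2, 0 with limma-voom, 0 at 0.05, 0 with each library left out (0 to 0), 1500 with the replicate block, 306 with the block in DESeq2 and 1371 with the block in limma-voom. Of the further targets, 0 were called, 1 with DESeq2, 7 with the replicate block, 2 with the block in DESeq2 and 6 with the block in limma-voom (0 to 0 with a library left out). *Dcxr*, *Bmf*, *Ccng2*, *Trp53inp2*, *Isg20l2*, *Rad50*, *Atm* and *Mcm2* were not called by DESeq2 with the block, and *Perp*, *Ddit4l* and *Pmaip1* were given no adjusted p-value by it. The causes were not tested.

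The median log2 fold change of the 10 genes, 0.10, ran from -0.0081 without WT replicate 1 to 0.26 without WT replicate 2, and the number of the 10 above 0 ran from 4 to 9. With a library left out, *Bbc3* ran from 0.33 to 0.42, *Bax* from 0.07 to 0.29 and *Mdm2* from 0.05 to 0.26. The other 7 changed sign: *Ccng1* ran from -0.13 to 0.14, *Phlda3* from -0.066 to 0.41, *Trp53inp1* from -0.21 to 0.10, *Zmat3* from -0.13 to 0.18, *Aen* from -0.0074 to 0.29, *Sesn1* from -0.25 to 0.38 and *Plk2* from -0.19 to 0.29. A library left out leaves 1 library in a group, which is assumed to vary like the other group. The blocked fit could not be made with a library left out, since no residual degree of freedom remains. Standard errors of the 10 genes without the block were from 0.096 (*Bbc3*) to 0.25 (*Sesn1*).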

Other observations

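The BH3-only genes were grouped after their values were seen and carry no test as a group. Of 6 tested, 3 were higher in *Phf2* KO with the replicate block: *Bbc3* (log2 fold change 0.38), *Pmaip1* (0.40) and *Bmf* (0.27), against 5.77% of all genes. The other 3 were not called, with log2 fold changes of -0.05 for *Bad*, -0.04 for *Bcl2l11* and 0.02 for *Bid*. The means of *Bmf* were 22.0 ± 1.93 CPM (SD, n = 2) for WT against 26.5 ± 0.314 CPM (SD, n = 2) for *Phf2* KO, and both *Phf2* KO libraries were above both WT libraries. Of the multidomain members, *Bak1* had means of 84.4 (WT) and 84.1 (*Phf2* KO) CPM and *Mcl1* of 161 and 167 CPM, and neither was called. *Bad*, *Bcl2l11*, *Bid*, *Bak1* and *Mcl1* are named here after their values were seen. DESeq2 with the block called neither *Bbc3* nor *Bmf*.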
